A study of Chlorocebus sabaeus with 32 samples.

Results

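The neuronal chloride cotransporters SLC12A5 and SLC12A2 and the kinases WNK1, STK39 and OXSR1 were followed through the hippocampus of young vervet monkeys (Chlorocebus sabaeus). The genes were taken by name as 5 of the 33994 gene rows of a count table. RNA sequencing covered 32 libraries of whole hippocampus, each with its own identifier and each treated here as 1 animal. All animals carry the same age label, under 1 year, and no treatment or genotype is given. The library titles begin with a prefix of 4 digits, here written prefix-2010 (16 libraries), prefix-2011 (2 libraries) and prefix-2009 (14 libraries), and the labels do not say what the prefix stands for. A second number in the title falls into a high range above 20000 and a low range below it: 9 libraries with prefix-2010 have high and 7 have low numbers, both with prefix-2011 are high, and all 14 with prefix-2009 are low.

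SLC12A5 encodes KCC2, the potassium chloride cotransporter that moves chloride out of neurons, and SLC12A2 encodes NKCC1, the sodium potassium chloride cotransporter that moves it in. The balance of both sets whether GABA, the main inhibitory transmitter of the mature brain, lowers or raises the membrane potential of a neuron, and in mammals the balance moves from import towards export as neurons mature. WNK1 is a chloride-sensitive kinase that phosphorylates and activates STK39 (SPAK) and OXSR1 (OSR1), and these in turn activate NKCC1 and inhibit KCC2. KCC2 is largely a neuronal protein, while NKCC1 is also found in oligodendrocyte lineage cells, astrocytes, endothelium and choroid plexus.

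Gene counts per library lay between 9347635 and 19673621, with a median of 16201657. A mean of 57.0% ± 3.61 (SD, n = 32) of the counted reads fell in no annotated gene. Markers of CA pyramidal and dentate granule cells were detected in every library, and the summed level of 5 dentate granule cell markers was between 58.1 and 387 CPM (counts per 1000000 gene counts, with library sizes scaled by TMM), with a median of 284 CPM. The lowest 2 libraries were prefix-2009 replicate 1, at 58.1 CPM, and prefix-2010 replicate 2, at 87.5 CPM. Prefix-2009 replicate 1 held the fewest gene counts and the largest share of reads in no gene (67.1%), and prefix-2010 replicate 2 had 602 CPM of striatal and thalamic markers, against a median of 98.9 CPM over all libraries. The ratio, the correlations and the gene fits, except that of high against low title numbers within prefix-2010, were recomputed without both. Changed calls are given for the 5 genes and their pairs, and score relations that passed are only counted.

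SLC12A5 had a mean of 343 ± 44.0 CPM (SD, n = 32) and ranged from 249 to 405 CPM. Its lowest values were in prefix-2011 replicate 2 and prefix-2010 replicate 15, and the 10 highest values all belonged to prefix-2009. SLC12A2 had a mean of 109 ± 18.2 CPM and ranged from 77.4 CPM in prefix-2010 replicate 5 to 170 CPM in prefix-2009 replicate 1. WNK1 was the most variable of the 5 genes, at 474 ± 94.9 CPM, with values between 311 and 672 CPM. STK39 was at 60.2 ± 9.26 CPM and ranged from 48.0 to 82.7 CPM. OXSR1 stood at 47.0 ± 2.18 CPM, and its lowest and highest libraries had 41.9 and 51.9 CPM. CPM values do not allow for transcript length, so the levels of different genes are not compared here.

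The related kinases STK39 and OXSR1, which phosphorylate the same cotransporters, differed in how far they varied between animals. The coefficient of variation of OXSR1 was 4.64%, and counting error alone accounted for 3.67%. That of STK39 was 15.4%, beside a counting error of 3.27%. SLC12A5 had a coefficient of variation of 12.8%, SLC12A2 of 16.7% and WNK1 of 20.01%, with counting errors between 1.17% and 2.43%. The biological coefficient of variation fitted by edgeR, a model estimate of variation beyond counting error that is drawn towards that of genes of like abundance, was 0.06 for OXSR1, above its observed coefficient of variation, and at the 0.185th percentile of 19959 genes, and 0.15 for STK39, at the 44.6th percentile. SLC12A5 (0.14), SLC12A2 (0.16) and WNK1 (0.20) lay at percentiles 37.7, 50.2 and 66.8, around the median of all genes, 0.16. By both measures OXSR1 varied least of the 5 genes, and the other 4 had fitted variation in the middle range of the table. How far OXSR1 varied beyond counting error differed between the measures.

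**Figure D1:**
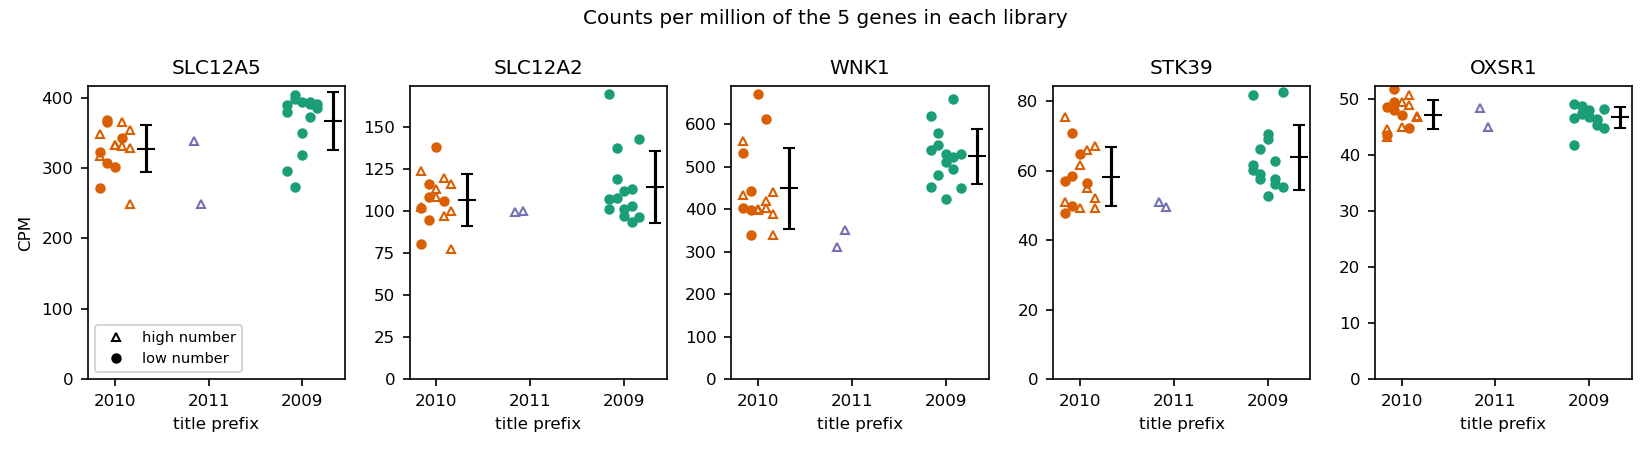
CPM (vertical axis, from 0) of SLC12A5, SLC12A2, WNK1, STK39 and OXSR1 in each of the 32 libraries, by title prefix (horizontal axis). Points are libraries, open triangles have a high and filled circles a low title number, and bars show the mean ± SD for prefix-2010 (n = 16) and prefix-2009 (n = 14). SLC12A5 and WNK1 sit lower in prefix-2010 with overlapping ranges, and OXSR1 stays between 41.9 and 51.9 CPM.

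The libraries with prefix-2010 were compared with those with prefix-2009. SLC12A5, the chloride exporter, had a minimum of 249 CPM, a median of 332 CPM and a maximum of 368 CPM with prefix-2010, against 274, 388 and 405 CPM with prefix-2009. The ranges overlapped, but all 16 libraries of prefix-2010 lay below the median of prefix-2009. The means were 328 ± 33.3 CPM (SD, n = 16) with prefix-2010 and 367 ± 41.8 CPM (SD, n = 14) with prefix-2009. The log2 fold change was -0.16 ± 0.06 (SE), a difference of -10.4% with a 95% interval of -17.7 to -2.42%, and did not pass after adjustment over all genes tested (edgeR quasi-likelihood test, adjusted p = 0.0909). Without both libraries of lowest dentate markers it passed, at -0.20 (edgeR adjusted p = 0.0249), and it also passed without prefix-2009 replicate 1 alone (adjusted p = 0.0348) or prefix-2009 replicate 12 alone (adjusted p = 0.0332). In the other 28 of 30 fits that left out 1 library it did not pass, with an adjusted p of up to 0.141. In whole tissue, fewer cells of a type and less RNA per cell cannot be told apart.

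WNK1, the kinase at the head of the cascade, had a minimum of 338 CPM, a median of 411 CPM and a maximum of 672 CPM with prefix-2010, against 424, 526.1 and 659 CPM with prefix-2009. Of the prefix-2010 libraries, 12 of 16 lay below the prefix-2009 median, while replicates 3 and 4 reached 672 and 613 CPM. The means were 449 ± 95.6 CPM (SD, n = 16) with prefix-2010 and 524 ± 65.0 CPM (SD, n = 14) with prefix-2009, a log2 fold change of -0.22 ± 0.08 (edgeR adjusted p = 0.0820). WNK1 passed without prefix-2010 replicate 3 (adjusted p = 0.0175), replicate 4 (0.0327) or replicate 16 (0.0469), and in the other 27 of 30 such fits it did not, with an adjusted p of up to 0.144. RAD52, a DNA repair gene, overlaps WNK1 in the RefSeq annotation and had a median of 348 counts, beside 7841.5 for WNK1. Whether reads passed from the one to the other was not tested. Another annotated gene overlaps WNK1 and 2 overlap SLC12A5, and none of these has a row in the count table.

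The other 3 genes differed less between the prefixes. SLC12A2, the chloride importer, averaged 106 ± 15.4 CPM with prefix-2010 and 114 ± 21.6 CPM with prefix-2009, a log2 fold change of -0.10 ± 0.08 (edgeR adjusted p = 0.472). A pseudogene overlaps it in the annotation and had a median of 43 counts, against 1773 for SLC12A2. Its 95% interval, -16.0 to 4.27%, allows a small difference in either direction. STK39 averaged 58.3 ± 8.503 CPM with prefix-2010 and 63.8 ± 9.34 CPM with prefix-2009, a log2 fold change of -0.12 ± 0.07 (edgeR adjusted p = 0.264). OXSR1 averaged 47.3 ± 2.52 CPM with prefix-2010 and 46.8 ± 1.84 CPM with prefix-2009, with a log2 fold change of 0.02 ± 0.03 (edgeR adjusted p = 0.713), and its 95% interval of -2.79 to 6.04% bounds any difference closely.

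In all, 0 of the 5 genes passed in this comparison, in which 12.5% of the 23977 genes tested did (7.11% higher and 5.35% lower with prefix-2010), and edgeR's unadjusted p was under 0.05 for SLC12A5 (0.0166) and WNK1 (0.0140). DESeq2 and limma-trend likewise called none of the 5. Since every prefix-2009 library has a low title number, the comparison was repeated within low numbers, 7 libraries against 14. Again 0 of 5 genes passed with edgeR, beside 5.23% of 22203 genes (3.09% higher and 2.14% lower). The log2 fold change of SLC12A5 was -0.17 ± 0.08 there, close to that over all libraries (adjusted p = 0.202), and that of WNK1 was -0.11 ± 0.11 (adjusted p = 0.604). High against low title numbers within prefix-2010 gave 0 of 5 genes and 0 of 21488 genes in all (0%) with edgeR, although 3023 genes had an unadjusted p under 0.05 and DESeq2 called 194 genes, with none of the 5 among them. WNK1 was furthest from 0 in that comparison, at -0.21 ± 0.13 (edgeR adjusted p = 0.490), with 420 ± 60.5 CPM in the 9 libraries with high and 485 ± 123 CPM in the 7 with low numbers.

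Both libraries with prefix-2011 had low values of 2 of the kinases. WNK1 was at 311 and 351 CPM there, and STK39 at 51.0 and 49.5 CPM. SLC12A5 differed between them, at 338 and 249 CPM, while SLC12A2 was at 99.2 and 99.7 CPM and OXSR1 at 48.5 and 45.0 CPM. No comparison was made with 2 libraries.

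Some lists of cell type markers held genes called between the prefixes, beside 7.11% of all genes tested higher and 5.35% lower with prefix-2010. Of 13 markers of immature neurons, such as DCX and SOX11, 12 were higher with prefix-2010 (edgeR, adjusted p under 0.05), and their summed level ranged from 1762 to 4666 CPM with prefix-2010 and from 1483 to 2994 CPM with prefix-2009. Of 10 mature neuron markers 6 were lower, with sums of 4315 to 6852 CPM with prefix-2010 and 4228 to 8123 CPM with prefix-2009. Of 9 oligodendrocyte precursor markers 5 were higher, with sums of 1322 to 2072 CPM with prefix-2010 and 1008 to 1868 CPM with prefix-2009. Within low title numbers 9 of these 13, 1 of these 10 and 3 of these 9 passed in the same directions. There 3.09% of all genes tested were higher and 2.14% lower. In other lists, 2 of 8 inhibitory neuron, 2 of 7 microglia and 3 of 8 striatal and thalamic markers were higher. Mature myelin, dentate granule, and mural and fibroblast lists each held 1 call. None of 8 astrocyte, 7 CA pyramidal, 8 endothelial or 7 choroid plexus markers passed. None of these markers was at 0 in every library, and their part in the differences of SLC12A5 and WNK1 was not tested.

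Because the labels give no exact age, the 13 immature neuron markers were also combined into a score, the mean of their standardised log2 CPM, scaled to an SD of 1 over the libraries. The score averaged 0.56 ± 0.71 with prefix-2010 (SD, n = 16), 1.57 with prefix-2011 and -0.86 ± 0.47 with prefix-2009 (SD, n = 14). Slopes on this score were fitted over all genes except the 13 markers.

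Of the 5 genes, 4 fell as the score rose, both cotransporters and 2 of the 3 kinases. WNK1 had the steepest slope of the 5, -0.21 ± 0.04 log2 units per SD of the score (SE, edgeR adjusted p = 3.42e-05), which is -13.5% per SD with a 95% interval of -17.7 to -9.05%. STK39 fell by 0.14 ± 0.03 on the log2 scale per SD (adjusted p = 0.000381), and SLC12A5 fell by 0.11 ± 0.03 (adjusted p = 0.00377). SLC12A2 fell by 0.10 ± 0.04 (adjusted p = 0.0265). OXSR1, the second kinase that acts on the cotransporters, had a slope of 0.01 ± 0.02 and did not pass (adjusted p = 0.628), and its 95% interval was -1.32 to 2.78% per SD. These 4 of 5 genes stand beside 34.4% of all 19946 genes tested that passed, 17.2% as falling.

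The score and the prefix overlap, so slopes were also fitted with the prefix as a factor, which asks about libraries of the same prefix. WNK1 kept its slope at -0.21 (edgeR adjusted p = 0.0143) and STK39 was at -0.19 (adjusted p = 0.00824). SLC12A5 was at -0.08 (adjusted p = 0.321) and SLC12A2 at -0.15 (adjusted p = 0.108) and neither passed. The number of genes called in the whole table also fell, to 2322. The call of the SLC12A2 slope was not stable. Without prefix-2009 replicate 1 the slope was -0.07 (edgeR adjusted p = 0.131), and without both libraries of lowest dentate markers -0.07 (adjusted p = 0.127). With all libraries kept it did not pass when scaled by library total (-0.0925, adjusted p = 0.0658). Nor did it pass with the share of reads in no gene as a covariate (-0.0823, adjusted p = 0.0642).

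**Figure D2:**
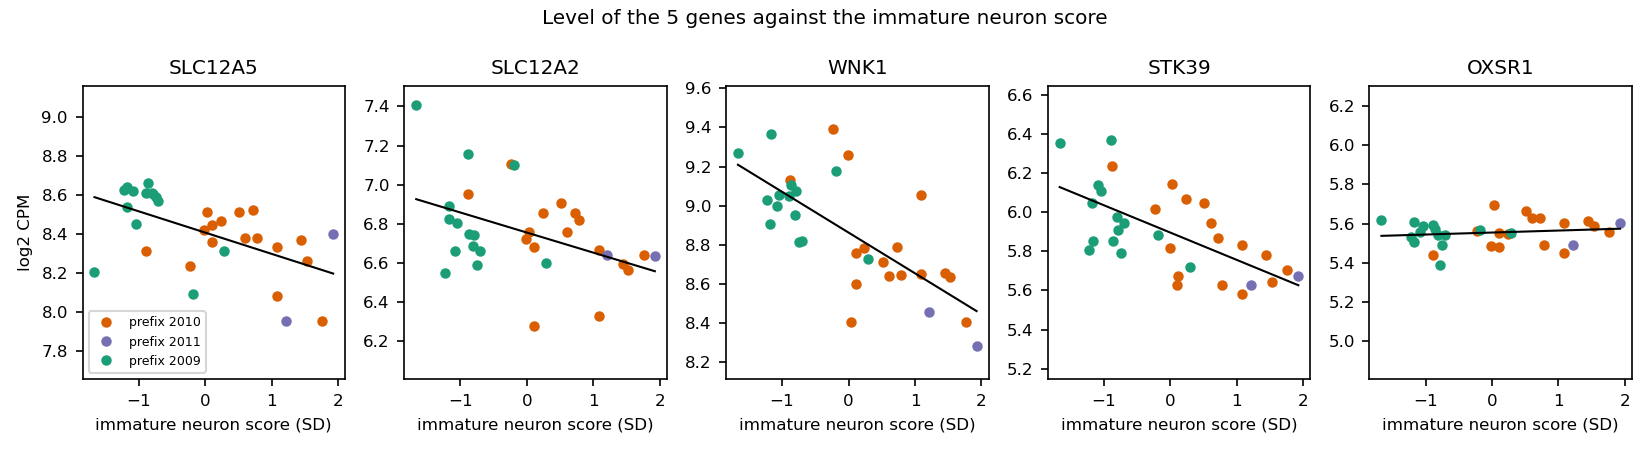
Log2 CPM (vertical axis, the same span in each panel) of the 5 genes against the immature neuron score in SD units (horizontal axis) in 32 libraries coloured by prefix. The lines have the fitted slopes, -0.11 for SLC12A5, -0.10 for SLC12A2, -0.21 for WNK1, -0.14 for STK39 and 0.01 for OXSR1, and pass through the mean of the points.

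The ratio of SLC12A5 to SLC12A2 read counts within a library sets the exporter's RNA against the importer's and needs no scaling between libraries. It is a ratio of reads, not of molecules, since transcript lengths differ. The ratio was 3.21 ± 0.597 over all libraries (SD, n = 32) and ranged from 1.74 in prefix-2009 replicate 1 to 4.25 in prefix-2010 replicate 5. With prefix-2010 its minimum, median and maximum were 2.19, 3.18 and 4.25, against 1.74, 3.50 and 4.22 with prefix-2009. Prefix-2009 had both the wider spread and the higher median, and its low end was formed by replicates 1 and 12, at 1.74 and 1.995. On the log2 scale the means were 1.63 ± 0.22 (SD, n = 16) with prefix-2010 and 1.70 ± 0.38 (SD, n = 14) with prefix-2009, a difference of -0.06 that was smaller than the spread within either prefix (2-sided permutation test, p = 0.575, 95% interval -0.29 to 0.16).

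The medians gave another picture, with a difference of -0.14 (permutation test, p = 0.0187), and 15 of 16 libraries of prefix-2010 lay below the median of prefix-2009. Without both libraries of lowest dentate markers the difference of means was -0.14 (permutation test, p = 0.156). Within low title numbers the difference was -0.07 (exact permutation test, p = 0.628), and between high and low numbers within prefix-2010 it was 0.01 (exact permutation test, p = 0.924). Single libraries moved these differences. Between the prefixes it was -0.13 without prefix-2009 replicate 1 and -0.03 without prefix-2010 replicate 3. Within low numbers it was -0.14 and 0.01 without the same libraries, and between high and low numbers -0.07 without prefix-2010 replicate 3, and none of these passed. The means thus differed by less than the spread between libraries in every comparison, and only the difference of medians between the prefixes passed. With the immature neuron score the log2 ratio had r = -0.04 over 32 libraries.

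The ratio of STK39 to OXSR1 counts, chosen after the values were seen and given without a test, averaged 1.23 ± 0.180 with prefix-2010, 1.08 with prefix-2011 and 1.36 ± 0.172 with prefix-2009. It spanned 1.04 to 1.74.

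Across animals SLC12A5 and SLC12A2 showed no relation that passed, with Pearson's r = 0.02 and Spearman's rho = 0.10 (permutation test, adjusted p = 0.914 and 0.663 over 10 gene pairs, n = 32). The sign differed between the prefixes, at r = 0.33 within prefix-2010 and -0.55 within prefix-2009, and neither passed (permutation adjusted p = 0.301 and 0.126). The importer instead went with 2 of the kinases. SLC12A2 and STK39 had r = 0.74 and rho = 0.74 (permutation adjusted p = 0.0001 and 0.0002), with r = 0.73 within prefix-2010 and 0.73 within prefix-2009, and r = 0.66 without the 2 libraries farthest from the median of SLC12A2. SLC12A2 and WNK1 had r = 0.54 and rho = 0.53 (permutation adjusted p = 0.00605 and 0.00963), and r = 0.48 without the 2 farthest libraries. Their r was 0.50 within prefix-2010 and 0.59 within prefix-2009, and neither passed (permutation adjusted p = 0.224 and 0.126). WNK1 and STK39 had r = 0.48 and rho = 0.51 (permutation adjusted p = 0.0183 and 0.00963), but r = 0.31 after centring within each prefix, where the relation no longer passed. None of the 4 pairs with OXSR1 passed, but with CPM scaled by library total SLC12A2 and STK39 each passed with it, both at r = 0.41 (permutation adjusted p = 0.0395). Without both libraries of lowest dentate markers SLC12A5 and STK39 passed as well, with r = 0.46 (permutation adjusted p = 0.0257).

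**Figure D3:**
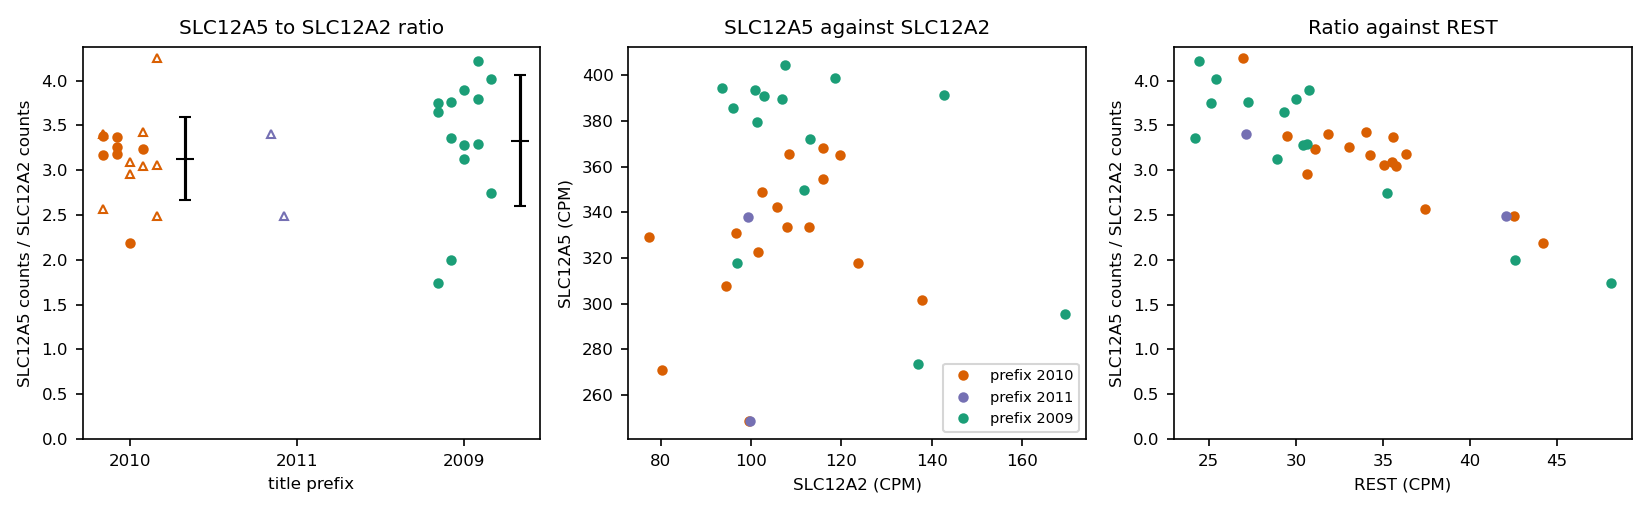
Left, the ratio of SLC12A5 to SLC12A2 counts by title prefix, with symbols as in the plot of levels and bars for the mean ± SD. Middle, SLC12A5 against SLC12A2 in CPM, with r = 0.02. Right, the ratio against REST in CPM. The lowest ratio, 1.74, and the most REST, 48.1 CPM, were in prefix-2009 replicate 1, which also held the fewest gene counts. Points are libraries coloured by prefix.

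The genes were next set against scores of 13 cell type marker lists and 2 library measures, 90 relations in all with p-values adjusted over them. Of these, 30 passed by r and 24 by rho, 16 passed without the 2 farthest libraries of each x axis, and 24 without both libraries of lowest dentate markers. Within the prefixes, with fewer libraries, 3 passed in prefix-2010 and 15 in prefix-2009. A score is the mean standardised log2 CPM, in whole tissue, of the listed genes that passed the count filter. The dentate granule score held 3 of 5 markers and the choroid plexus score 3 of 7. Several lists move together across these libraries.

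SLC12A2 followed the myelin genes most closely. With the score of 12 mature myelin markers, such as MBP and OPALIN, it had r = 0.81 and rho = 0.86 (permutation adjusted p = 0.000225 and 0.0003), with r = 0.85 within prefix-2010, 0.84 within prefix-2009 and 0.76 without the 2 farthest libraries. With 8 astrocyte markers it had r = 0.59 and rho = 0.52 (adjusted p = 0.00337 and 0.0153), and r = 0.44 without the 2 farthest libraries, which no longer passed. With the choroid plexus score, from a tissue that carries NKCC1, the relation did not pass (r = 0.22). The summed level of all 7 choroid plexus markers, a measure other than the score, was 443 CPM in prefix-2010 replicate 8. Its median was 26.1 CPM. With mature neuron markers SLC12A2 had r = 0.03.

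Over all libraries SLC12A5 followed the mature neuron markers, with a weaker relation within prefix-2010. With 10 mature neuron markers, such as RBFOX3 and SNAP25, it had r = 0.72 and rho = 0.70 (permutation adjusted p = 0.000225 and 0.00045), with r = 0.43 within prefix-2010, 0.72 within prefix-2009 and 0.60 without the 2 farthest libraries. It was lower where precursor and vascular markers were higher. With oligodendrocyte precursors it had r = -0.71 and rho = -0.74 (adjusted p = 0.000225 and 0.0003), and r = -0.46 within prefix-2010, -0.81 within prefix-2009 and -0.68 without the 2 farthest libraries. With endothelial markers r was -0.68 and rho -0.56 (adjusted p = 0.0009 and 0.00656). With mural and fibroblast markers r was -0.64 and rho -0.68 (adjusted p = 0.0012 and 0.00054). For the endothelial, mural and fibroblast markers only values over all libraries are given here.

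Their ratio followed several lists at once, and technical measures with them. It had r = -0.65 and rho = -0.65 with oligodendrocyte precursors (permutation adjusted p = 0.0009 and 0.00146), with r = -0.78 within each prefix and -0.63 without the 2 farthest libraries. With dentate granule markers it had r = 0.63 and rho = 0.64 (adjusted p = 0.00482 and 0.00146), but r = 0.12 within prefix-2010 and 0.84 within prefix-2009. With mature neurons (r = 0.45), astrocytes (r = -0.54), endothelium (r = -0.57) and myelin (r = -0.49) the relation no longer passed without the 2 farthest libraries. The ratio was also higher in deeper libraries, with r = 0.67 and rho = 0.57 for the total of gene counts (adjusted p = 0.00112 and 0.00498), 0.23 within prefix-2010 and 0.84 within prefix-2009. With the share of reads in no gene feature it had r = -0.53 and rho = -0.37 (adjusted p = 0.00805 and 0.108), and -0.26 without the 2 farthest libraries. The part of depth and of reads outside genes in these relations was not tested.

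Among the kinases, WNK1 had r = -0.72 and rho = -0.73 with the immature neuron score (permutation adjusted p = 0.000225 and 0.0003), with r = -0.54 within prefix-2010, -0.53 within prefix-2009 and -0.64 without the 2 farthest libraries. With mature neurons it had r = 0.59 and rho = 0.57 (adjusted p = 0.00286 and 0.00498), but -0.14 within prefix-2009. It also rose with the share of reads in no gene feature, with r = 0.52 and rho = 0.43 (adjusted p = 0.0108 and 0.0524), and 0.39 without the 2 farthest libraries, which no longer passed. STK39 went with myelin, with r = 0.57 and rho = 0.59 (adjusted p = 0.00482 and 0.00477) and r = 0.61 within prefix-2010 and 0.44 within prefix-2009. With astrocytes it had r = 0.59 and rho = 0.52 (adjusted p = 0.00286 and 0.0127), and 0.43 without the 2 farthest libraries, which no longer passed. OXSR1 passed with the striatal and thalamic score alone, at r = 0.52 and rho = 0.48 (adjusted p = 0.00981 and 0.0232), and at 0.32 without the 2 farthest libraries it no longer did.

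**Figure D4:**
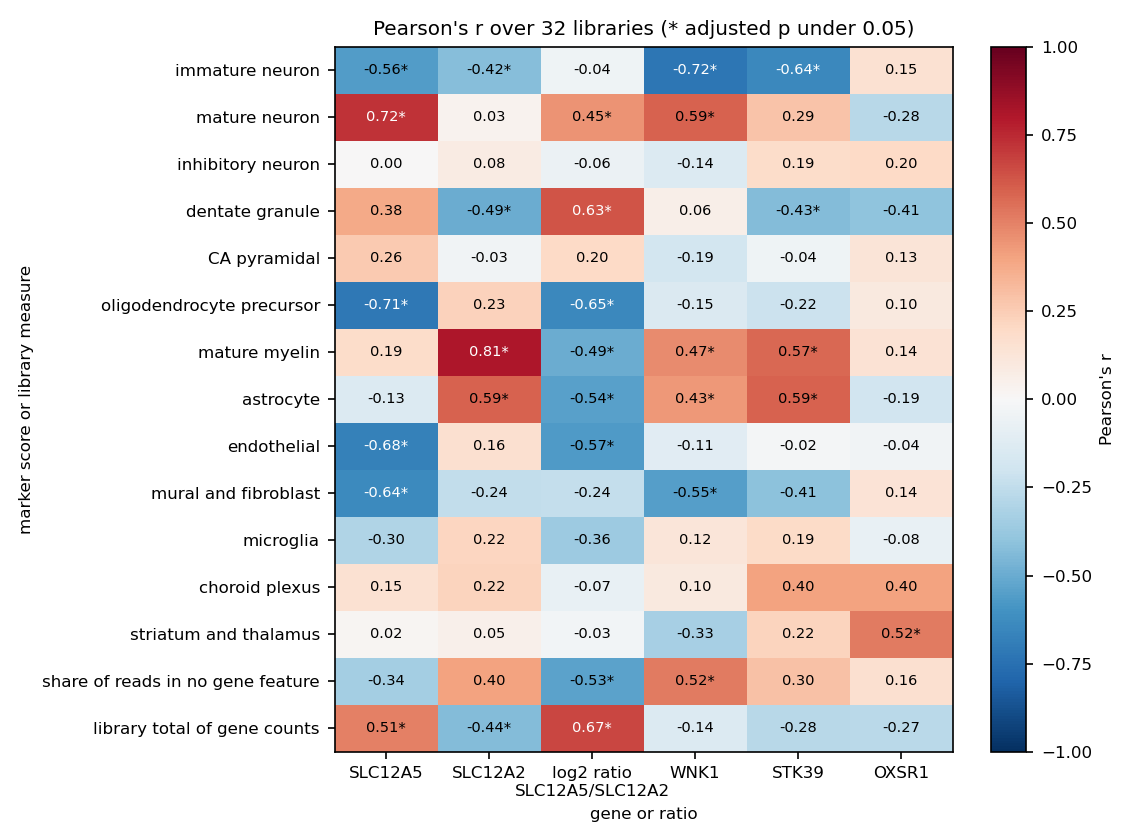
Pearson's r over 32 libraries between each gene or the log2 SLC12A5 to SLC12A2 ratio (columns) and 13 marker scores and 2 library measures (rows), with colour from -1 (blue) to 1 (red). An asterisk marks an adjusted permutation p under 0.05, and the strongest values are SLC12A2 with mature myelin, 0.81, and SLC12A5 with mature neuron, 0.72.

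For each cotransporter the genes of most similar pattern were taken from 14493 genes with a mean of at least 1 CPM, by Pearson's r of log2 CPM over 32 libraries and with no test. SLC12A5 was most like KCNJ9, a subunit of inward rectifying potassium channels, with r = 0.91 (0.83 within prefix-2010 and 0.89 within prefix-2009). CAP2, an actin-binding protein (0.88), PRKCZ, an atypical protein kinase C (0.87), TLN2, a talin (0.87), SCN2B, a sodium channel subunit (0.86) and RGS7BP, a G protein signalling partner (0.86), came next. The central 95% of all genes had r between -0.62 and 0.66 with SLC12A5. SLC12A2 was most like QKI, an RNA-binding protein of glia, with r = 0.88 (0.91 within prefix-2010 and 0.95 within prefix-2009). It was followed by FUT8, a fucosyltransferase (0.88), FGFR2, a growth factor receptor (0.87), SLC44A1, a choline transporter (0.85), CREB5, a transcription factor (0.85), and PHLDB1 (0.85). For SLC12A2 the central 95% of genes spanned -0.62 to 0.60. STK39 was the 74th gene in that order and WNK1 the 608th.

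The log2 ratio was matched best by C1QL3, a secreted C1q-like protein of synapses, with r = 0.91 (0.77 within prefix-2010, 0.95 within prefix-2009 and 0.83 without the 2 farthest libraries). PRKAR1B, a regulatory subunit of protein kinase A (0.86), POLD2, a DNA polymerase subunit (0.85), C2CD2L (0.85), SEMA4F, a semaphorin (0.84), DHX30, a helicase (0.84), CAMK1, a calcium-dependent kinase (0.84), SNAP47 (0.83) and PPME1 (0.82) were among those that followed. The lowest r was that of REST, a repressor of neuronal genes, at -0.87 (-0.86 within prefix-2010, -0.91 within prefix-2009 and -0.84 without the 2 farthest libraries). It was followed by SNAP23 (-0.85), CCBL2 (-0.81), ZFYVE16 (-0.81) and PLEKHG1 (-0.80), while the central 95% of 14492 genes spanned -0.57 to 0.67. REST itself did not pass between the prefixes, at 34.6 ± 4.41 CPM with prefix-2010 and 30.9 ± 6.91 CPM with prefix-2009 (edgeR adjusted p = 0.196).

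The rest of the pathway was read from 7 lists of 75 genes outside the set. Counts of genes called in them are to be set against the whole table, where 7.11% of genes were higher and 5.35% lower with prefix-2010, and 17.2% rose and 17.2% fell with the score. In lists this short, 1 gene called says nothing about the list. In the cation chloride cotransporter family 1 of 7 tested genes was higher with prefix-2010. This was SLC12A4 (KCC1), a widely expressed exporter, at 49.0 ± 4.92 CPM with prefix-2010 and 40.2 ± 5.56 CPM with prefix-2009, a log2 fold change of 0.30 ± 0.06 (edgeR adjusted p = 0.00213). SLC12A4 also rose with the immature neuron score, by 0.11 ± 0.03 per SD (adjusted p = 0.0108), the opposite sign to SLC12A5. SLC12A8, a more distant relative, rose with the score as well, by 0.13 ± 0.05 (adjusted p = 0.0207). SLC12A3, known as the thiazide-sensitive cotransporter of the kidney, was read at a mean of 48.3 CPM here (46.9 ± 10.3 CPM with prefix-2010 and 51.0 ± 8.40 CPM with prefix-2009), and 1 other annotated gene overlaps it. SLC12A1, its relative in the kidney, was at 1.02 CPM.

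Of 15 other genes of the WNK pathway, 1 was higher and 3 were lower with prefix-2010. WNK3, a kinase of WNK1's family found in neurons, was at 42.0 ± 4.49 CPM with prefix-2010 and 37.4 ± 2.12 CPM with prefix-2009, a log2 fold change of 0.17 ± 0.05 (edgeR adjusted p = 0.0165). WNK4 was lower, at -0.41 ± 0.13 (adjusted p = 0.0281). KLHL3, an adaptor that targets WNK kinases for degradation, was at -0.27 ± 0.07 (adjusted p = 0.00748). CAB39L, a scaffold that helps activate STK39 and OXSR1, had the largest change of the 4, at -0.51 ± 0.13 (adjusted p = 0.00861), with 56.3 ± 13.4 CPM with prefix-2010 and 80.4 ± 20.8 CPM with prefix-2009. On the immature neuron score 3 of the 15 rose and 5 fell. WNK3 rose by 0.13 ± 0.02 per SD (adjusted p = 1.74e-06), NRBP1 and NRBP2, pseudokinases of the pathway, rose too, and WNK2, at -0.16 ± 0.04 (adjusted p = 0.00132), WNK4, KLHL3, CAB39L and TSC22D2 fell. With the prefix as a factor the slope of WNK3 passed, and those of the other 7 did not. Between the prefixes WNK4 did not pass without prefix-2009 replicate 4 (adjusted p = 0.0555) or replicate 7 (0.0535). It also did not pass with the number set (high or low) as a covariate, or within low title numbers.

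Among 8 partners of KCC2, 1 was higher and 1 lower with prefix-2010. NETO2, an auxiliary subunit of kainate receptors that binds KCC2, was at 183 ± 30.998 CPM with prefix-2010 and 138 ± 16.7 CPM with prefix-2009, a log2 fold change of 0.41 ± 0.08 (edgeR adjusted p = 0.00107). PACSIN1, an endocytic adaptor that binds KCC2, was at 335 ± 61.2 CPM with prefix-2010 and 433 ± 41.2 CPM with prefix-2009, a log2 fold change of -0.36 ± 0.08 (adjusted p = 0.00253). On the score NETO2 rose by 0.27 ± 0.02 per SD (adjusted p = 5.61e-11), and PACSIN1 had a slope of -0.29 ± 0.02 (adjusted p = 1.04e-12), the largest slopes of the list. AP2M1, a clathrin adaptor subunit, CKB, GRIK2 and EPB41L1 fell, with slopes between -0.18 and -0.08. The calls of AP2M1 and GRIK2 were the less stable, each lost in 4 of 10 alternatives, with an adjusted p of up to 0.655 and 0.415, and in 9 and 2 of 32 fits that left out 1 library. Of 7 genes that act on SLC12A5 transcription 0 passed between the prefixes by edgeR. On the score, USF1 rose and USF2 fell.

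The last 3 lists hold other chloride transport, receptors and the sodium potassium pump. Of 16 other chloride transporters and channels 1 was higher with prefix-2010, SLC4A3, an anion exchanger of neurons, at 226 ± 16.2 CPM with prefix-2010 and 204 ± 12.1 CPM with prefix-2009, a log2 fold change of 0.15 ± 0.04 (edgeR adjusted p = 0.0121). SLC4A3 did not pass with the number set as a covariate or within low title numbers. On the score 4 of the 16 rose, SLC4A3, the chloride proton exchangers CLCN3 and CLCN7, and LRRC8A, a volume-regulated anion channel subunit, with slopes between 0.05 and 0.08, and ANO2, a calcium-activated chloride channel, fell by 0.22 ± 0.06 (adjusted p = 0.00354). Of 16 GABA and glycine receptor subunits 1 was lower, GABRA2, at -0.25 ± 0.08 (adjusted p = 0.0463), with 370 ± 61.8 CPM with prefix-2010 and 441 ± 67.2 CPM with prefix-2009. That call was at the threshold and was lost in 22 of 30 fits that left out 1 library (adjusted p of up to 0.0865) and with the number set as a covariate (-0.12, adjusted p = 0.509). On the score, GABRA4 (-0.23 ± 0.05, adjusted p = 0.00034), GABRD (-0.19 ± 0.05, adjusted p = 0.00643) and GABRA2 fell, and GABRG1 rose by 0.16 ± 0.04 (adjusted p = 0.00286). Of 6 subunits of the sodium potassium pump, which maintains the gradients that drive the cotransporters, 0 passed between the prefixes by edgeR. ATP1B2, a beta subunit, fell with the score, and its call, like that of GRIK2, was lost without both libraries of lowest dentate markers. Of the 28 genes of these lists named as passing on the score, 9 still passed with the prefix as a factor, NETO2, PACSIN1, WNK3, GABRA4, ANO2, CLCN3, CKB, EPB41L1 and USF2. The other 19, SLC12A4 (0.03) and WNK2 among them, did not. Leaving out 1 library ended the call in at least 1 fit for 8 of the 28, namely AP2M1, ATP1B2, CLCN7, GABRA2, GRIK2, LRRC8A, NRBP2 and SLC12A8. The medians of the 7 lists between the prefixes were from -0.14 to 0.05, beside 0.01 over all genes tested.

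**Figure D5:**
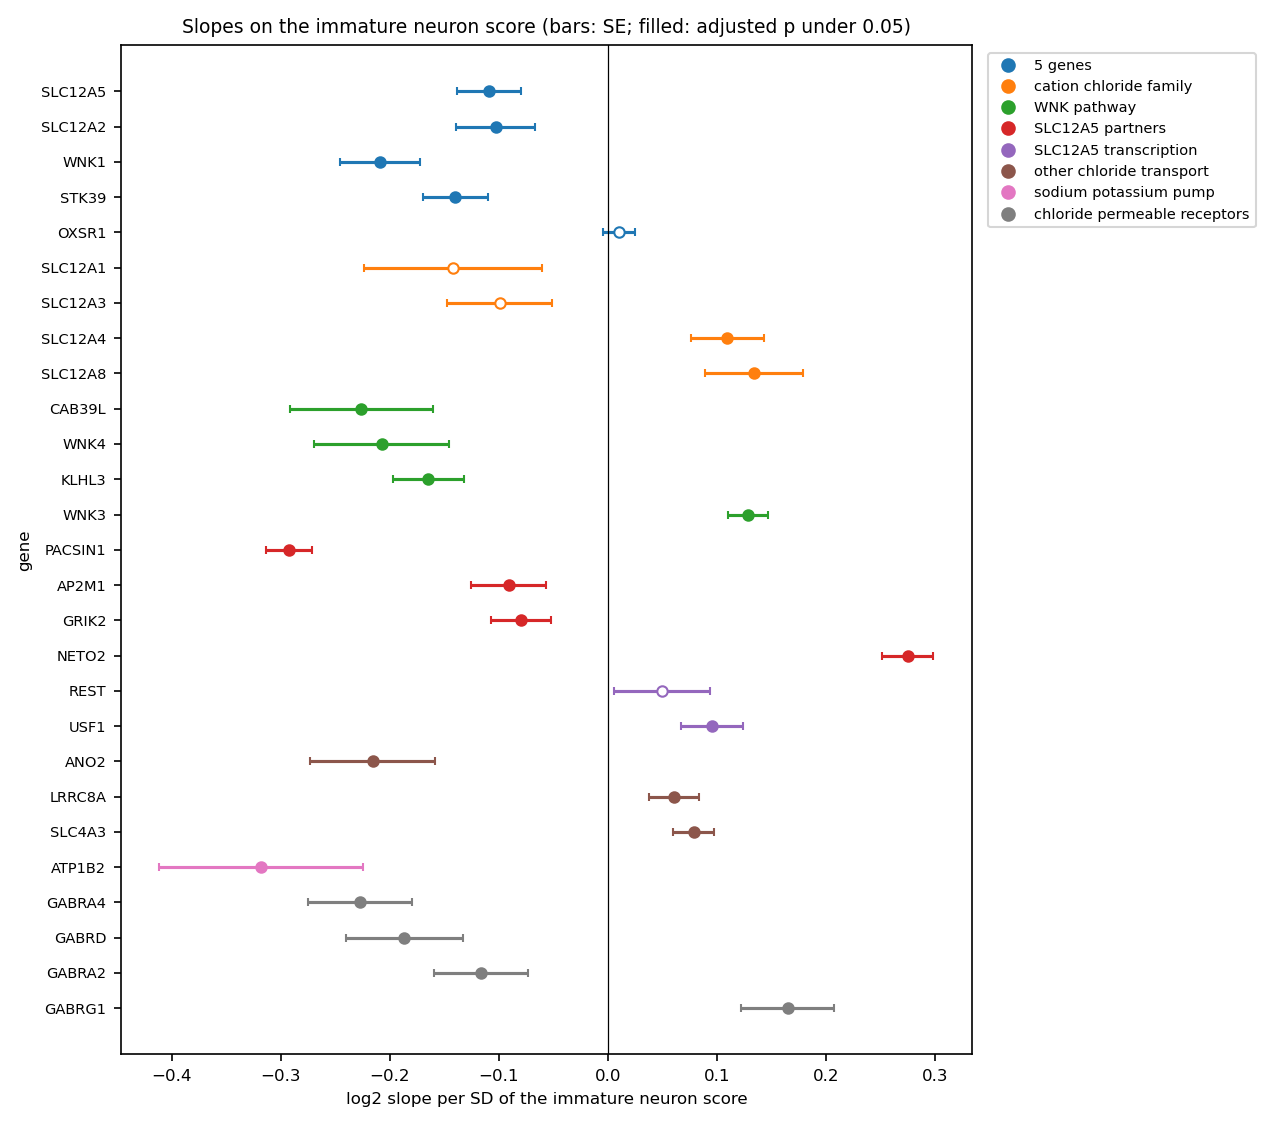
Log2 slope per SD of the immature neuron score (horizontal axis) for the 5 genes and for 22 pathway genes grouped by list (colours), with bars of 1 SE. Filled points have an edgeR adjusted p under 0.05. PACSIN1 (-0.29) and NETO2 (0.27) lie far to either side, and WNK3 (0.13) lies opposite to WNK1 (-0.21).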

How the data were processed

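The authors deposited a table of raw read counts per gene for 32 libraries. Total RNA was depleted of ribosomal RNA and made into stranded libraries, per the labels' protocols, and STAR and HTSeq are named in the submitters' processing notes. Versions, strand setting and genome build are not given there or in the sources used here (labels, series text and file). The 5 summary rows, a mean of 66.1% of reads, were left out of library sizes. The labels give each library its own identifier but do not state that each is a separate animal, so p-values measure the spread between these samples. Symbols were matched to RefSeq (mChlSab1.0.hap1), with 20959 of 33994 rows matched.

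Counts were filtered (filterByExpr, minimum count 10), scaled by TMM and tested by edgeR 4.0.16 quasi-likelihood with Benjamini-Hochberg adjustment at 0.05 over all genes tested, in R 4.3.3. The prefix fit used all 32 libraries. DESeq2 1.42.0, limma 3.58.1, other scalings and filters, covariates and leaving out each library were alternatives. Correlations used log2 CPM with a prior count of 2 and 100000 permutations, whose smallest p is 1e-05. The scripts were tested on simulated data. The 5 genes, their ratio and the immature neuron score did not split into separate clusters of libraries, with inner gaps of at most 0.159 of the range, and the other scores were not examined for this. Named genes were the 5 members, up to 4 genes per pathway list with the smallest p between prefixes, and the genes of most similar pattern. Some genes that this rule or the lists give are not reported here. The other genes named, which passed on the score, were singled out after their values were seen. The members and lists were chosen with earlier results of these data known.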

Additional observations from a re-analysis of the deposited data

Results flagged for a closer look

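Of 12 groups of 4 to 10 libraries examined, 3 held a library far from the others, and chance alone marks about 1 in 20 such groups. SLC12A5 in prefix-2010 replicate 15 was at 249 CPM, below the other libraries with prefix-2010 and high title numbers. WNK1 in prefix-2010 replicate 16 was at 561 CPM, above the others of that group. The log2 ratio of SLC12A5 to SLC12A2 counts in prefix-2010 replicate 3 was 1.13, below the other libraries with prefix-2010 and low title numbers, and that library had 9196 CPM of myelin markers, against a median of 4779 CPM over all libraries.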

How the results depend on the processing

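No paired analysis was possible because the replicate numbers follow the order of deposit within a prefix and pair no libraries. Alternatives other than leaving out 1 library were compared for the 5 genes, the ratio, the correlations and the counts of calls. Of these, 212 were unchanged, 6 lost and 3 gained a call, and 8 counts moved by over 1.5 times. Unchanged values stayed on the same side of the threshold, though a sign could turn where neither passed, and unchanged counts stayed within 1.5 times. SLC12A5 between the prefixes passed with the share of reads in no gene as a covariate (-0.17, edgeR adjusted p = 0.0274) and without both libraries of lowest dentate markers (-0.20), an alternative chosen after seeing the data, as was leaving out each library for the slopes. The SLC12A2 slope no longer passed scaled by library total (-0.0925), with the share of reads in no gene (-0.0823), with the prefix as a factor (-0.15), without the 2 farthest libraries (-0.11) or without both of lowest dentate markers (-0.0682). The SLC12A5 slope with the prefix as a factor was -0.0834. The difference of ratio medians was -0.14, 5 gene pairs passed with CPM scaled by library total, and 16 score relations passed without the 2 farthest libraries. Genes called were 1328 between the prefixes with the number set as a covariate and 2322 for slopes with the prefix as a factor. Within low numbers they were 1815 by DESeq2, 1860 with the share of reads in no gene and 2282 without both libraries of lowest dentate markers, against 1162. High against low numbers gave 194 by DESeq2. Scaled by library total, 2310 genes were higher and 985 lower with prefix-2010, against 1705 and 1282, with 942 and 321 within low numbers, against 687 and 475, and 4247 rising and 2818 falling slopes, against 3421 and 3433. Leaving out 1 library at a time, genes called between the prefixes ranged from 2237 to 3870 and for slopes from 6128 to 7069. Log2 fold changes ranged from -0.19 to -0.14 for SLC12A5, from -0.27 to -0.19 for WNK1 and from -0.15 to -0.09 for STK39, and the SLC12A2 slope from -0.12 to -0.0681. The cause of these changes was not tested. Counting error of 1.17 to 3.67% limits the precision of each library's value.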
